A study of Mus musculus with 12 samples.

Results

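The genes described here are 10 components of the Notch signaling pathway in mouse liver, taken by symbol from the TPM tables of all 12 livers out of 41743 genes listed. They comprise 3 receptors (Notch1, Notch2 and Notch3), 3 ligands (Jag1, Jag2 and Dll4), 1 DNA-binding partner (Rbpj) and 3 target genes (Hes1, Hey1 and Heyl). Whole livers of 12 females, 3 to 4 months old, were sequenced for RNA in 4 groups of 3. YAP KO mice carried Foxa3-Cre and Yap1 fl/fl with a ROSA-stop fl/fl-EYFP allele on C57BL/6, and were compared with WT (C57BL/6) littermates. YAP KO TAZ HET mice carried Foxa3-Cre, had lost both copies of Yap1 and 1 copy of Wwtr1, which encodes TAZ, on a mixed C57BL/6-FVB background, and were compared with WT (mixed) littermates. Foxa3-Cre acts in the early foregut endoderm, from which hepatocytes and bile duct cells arise, though the study notes that it may also act in tissue of mesodermal origin, and Yap1 was not measured by cell type. YAP KO livers lack functional bile ducts. The comparisons ask how the Notch genes stand in each model, and whether the loss of 1 copy of Wwtr1 goes with a different level.

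Notch receptors are cleaved when a ligand on a neighboring cell binds them, and the freed intracellular domain enters the nucleus, joins Rbpj and turns on genes of the Hes and Hey families. In the liver the pathway is known for its part in bile duct formation, in which Jag1 signals to Notch2, and mutation of either gene in humans causes Alagille syndrome with too few bile ducts. Dll4 and Notch1 are known from vessels, and YAP and TAZ act on DNA through the TEAD factors.

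Levels are TPM (a level per gene length and library total). For the comparisons the TPM of each library was divided by a scaling factor that sets most genes level between the libraries of a comparison (scaled TPM), so each change is relative to the bulk of genes. A fold change is the difference in mean log2(scaled TPM + 1), which understates the change of low genes. A gene was tested where at least 3 of the 6 libraries reached 1 TPM, and was called at an adjusted p under 0.05 in limma. TPM keep no read depth, so the depth behind a value is unknown. Each tissue is bulk liver, in which fewer cells of a type and less RNA per cell cannot be told apart.

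The promoters of the 2 larger receptors by level are shown because Notch2 was the only member called in both models and Notch1 lay beside it. That of Rbpj is shown because, of the 7 members with a promoter entry, only it held the letters that Rbpj itself is known to bind. Each is the 250 bases before the RefSeq start site (GRCm38.p6), 5′ to 3′ on the strand of the gene, with 6-letter motif matches on either strand in capitals. The RBPJ core was searched as TGGGAA. A longer form of it with a G before the core was searched as GTGGGAA. The TEAD core was searched as GGAATG, whose first letters can overlap the end of the RBPJ core. The N box, which Hes factors are known to bind, was searched as CACNAG.
Notch2, chr3:98013288-98013537, plus strand: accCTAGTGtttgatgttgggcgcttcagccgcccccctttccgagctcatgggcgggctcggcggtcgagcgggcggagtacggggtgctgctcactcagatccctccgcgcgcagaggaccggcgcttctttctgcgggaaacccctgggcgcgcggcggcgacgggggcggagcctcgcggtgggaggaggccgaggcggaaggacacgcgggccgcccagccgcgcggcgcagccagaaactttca
Notch1, chr2:26503823-26504072, minus strand: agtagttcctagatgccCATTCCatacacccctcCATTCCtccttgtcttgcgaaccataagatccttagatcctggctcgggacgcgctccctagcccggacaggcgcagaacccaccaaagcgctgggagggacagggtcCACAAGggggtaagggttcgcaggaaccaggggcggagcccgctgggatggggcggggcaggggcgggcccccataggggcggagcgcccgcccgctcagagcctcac
Rbpj, chr5:53590096-53590345, plus strand: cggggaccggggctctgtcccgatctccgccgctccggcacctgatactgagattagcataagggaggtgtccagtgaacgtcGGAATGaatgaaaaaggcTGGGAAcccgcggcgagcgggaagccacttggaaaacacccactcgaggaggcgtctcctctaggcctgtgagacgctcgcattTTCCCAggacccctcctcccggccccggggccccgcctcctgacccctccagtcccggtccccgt
The Notch2 window held 1 N box, 247 bases before the start. The Notch1 window held 2 TEAD cores on the minus strand of the gene, at 233 and 216 bases before the start, and 1 N box at 108. The first of 2 Rbpj windows held 2 RBPJ cores, at 149 and 65 bases before the start, and 1 TEAD core at 167. Among all 32851 promoters of the table, 21.6% held the RBPJ core, 5.42% the longer form, 12.6% the TEAD core and 36.7% the N box. Of the 7 members with an entry, Dll4 held 1 N box, Notch3 held 2, and Jag1 and Jag2 held none of the letters searched. Hes1, Hey1 and Heyl had no entry. A match of letters is a description and not evidence of binding.

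Across the 12 livers Hes1 had the highest level of the 10 genes, with a median of 20.7 TPM, and Jag2 the lowest, with 0.136 TPM. Between them stood Notch2 (11.3), Rbpj (5.59), Notch1 (5.38), Dll4 (1.86), Jag1 (1.38), Heyl (0.978), Hey1 (0.910) and Notch3 (0.497 median TPM). Notch3 and Jag2 stayed under 1 TPM in every liver.

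**Figure D1:**
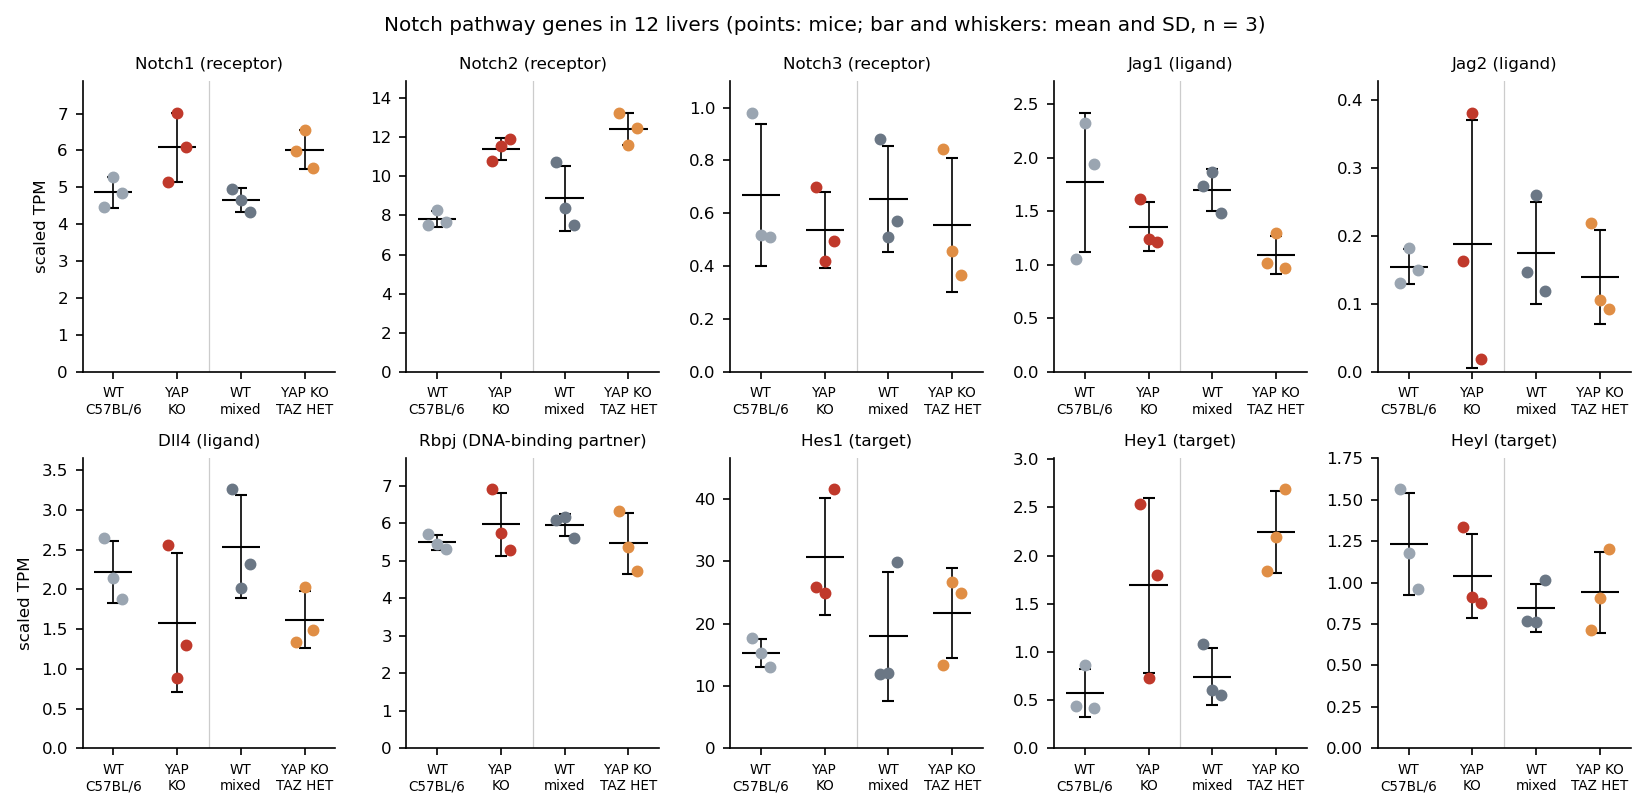
Scaled TPM (vertical axis, linear from 0) of each Notch gene in each mouse, by group, with the mean and SD of 3 mice; scaling was done separately within each model and its WT littermates. Notch2 of the 3 YAP KO mice lay between 10.8 and 11.9, above the WT (C57BL/6) mice, and Hes1 of 1 WT (mixed) mouse, at 29.8, lay above all 3 YAP KO TAZ HET livers.

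Of the 10 genes, 7 could be tested in YAP KO mice, and 2 of them, Notch2 and Hes1, were called, both higher. Over all 11704 genes tested in that comparison the share called was 36.7%, and 18.8% were called higher. In YAP KO TAZ HET livers 7 could be tested and again 2, Notch2 and Hey1, were called higher, where 38.2% of 11741 genes were called and 19.2% were called higher. No member was called lower in either model, beside 17.9% and 19% of all genes. The share of tested members called was 28.6% in each model. With only 7 genes tested, these counts do not set the members apart from all genes. Notch3 and Jag2 were below the filter in both models, Hey1 for YAP KO and Heyl for YAP KO TAZ HET livers. The median change over the tested members was 0.10 for YAP KO and 0.31 for YAP KO TAZ HET livers, beside -0.04 over all genes tested in each. The 7 genes were not the same, with Heyl tested only for YAP KO and Hey1 only for YAP KO TAZ HET livers. Hey1 had the largest change of its 7 and passed the filter mainly through the mutants. The medians and counts of the 2 models are therefore not directly comparable.

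The receptor Notch2 (ENSMUSG00000027878, chr3:98013527-98150361, plus strand of GRCm38, 34 exons in its longest transcript) was higher in both models. Its scaled TPM in WT (C57BL/6) mice was 7.52, 8.27 and 7.65, and in YAP KO mice 10.8, 11.5 and 11.9. The level was 10.7, 8.38 and 7.53 in WT (mixed) mice, against 13.2, 11.6 and 12.5 in YAP KO TAZ HET livers. The groups did not overlap in either model, as held for 51.2% and 52.1% of all genes tested, and WT (mixed) mouse LM226 stood nearest to the mutants. The mean rose from 7.81 ± 0.40 to 11.4 ± 0.56 in YAP KO mice (SD, n = 3), a log2 fold change of 0.49 ± 0.11 (SE, limma, adjusted p = 0.00839). In YAP KO TAZ HET livers it rose from 8.88 ± 1.65 to 12.4 ± 0.83 (SD, n = 3), by 0.45 ± 0.14 on the log2 scale (SE, limma, adjusted p = 0.0327). The call in YAP KO mice held without each mouse in turn (limma, adjusted p from 0.0176 to 0.0341). The call in YAP KO TAZ HET livers was lost without LM225, LM227, LM230, LM250 or LM251 (log2 fold changes from 0.36 to 0.49, limma, adjusted p from 0.0617 to 0.0929), each left out alone, and held only without LM226 (0.58, adjusted p = 0.0124).

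Notch1 (ENSMUSG00000026923, chr2:26457903-26516663, minus strand, 34 exons in its longest transcript), a receptor known from vessels and early lineage choices, had positive differences in both models that did not pass the test. Scaled TPM was 4.47, 5.28 and 4.83 in WT (C57BL/6) and 5.13, 7.03 and 6.08 in YAP KO mice, in which LM74 lay within the WT range. It was 4.97, 4.66 and 4.32 in WT (mixed) and 5.98, 6.57 and 5.52 in YAP KO TAZ HET livers, and these groups did not overlap. The log2 fold changes were 0.27 ± 0.14 and 0.31 ± 0.12 (SE, limma, adjusted p = 0.175 and 0.0665). Without scaling, which moves the median of all genes to 0.28 and 0.24, Notch1 was called in both models (0.57 and 0.58, limma, adjusted p = 0.0131 and 0.0111).

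Notch3 (ENSMUSG00000038146, chr17:32120820-32166852, minus strand), a receptor of mural cells, was low and overlapped between the groups of both models. Deposited TPM was 0.836, 0.474 and 0.450 in WT (C57BL/6), 0.853, 0.457 and 0.542 in YAP KO, 0.836, 0.450 and 0.490 in WT (mixed) and 0.999, 0.504 and 0.395 in YAP KO TAZ HET livers. In each group 1 mouse stood apart at the top, LM75, LM74, LM226 and LM225 in that order, and the labels do not say what these mice share. Without the filter on low values the log2 differences were -0.11 and -0.09 (limma, adjusted p = 0.595 and 0.666).

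The tested ligands had negative differences, and none passed the test. Jag1 (ENSMUSG00000027276, chr2:137081456-137116644, minus strand), the ligand of bile duct formation, had scaled TPM of 1.05, 2.32 and 1.94 in WT (C57BL/6) and 1.62, 1.24 and 1.21 in YAP KO mice. It was 1.73, 1.87 and 1.49 in WT (mixed) and 1.01, 1.29 and 0.971 in YAP KO TAZ HET livers. The groups overlapped in the first comparison and not in the second, where all 3 mutants were lower, as separation held for 52.1% of all genes tested. In deposited TPM the groups of the second comparison overlapped as well. The log2 differences were -0.21 ± 0.21 and -0.37 ± 0.14 (SE, limma, adjusted p = 0.459 and 0.0760). Without scaling the differences were 0.01 and -0.18 (limma, adjusted p = 0.987 and 0.362). With quantile normalization the YAP KO TAZ HET difference passed the test (-0.62, limma, adjusted p = 0.0125).

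Dll4 (ENSMUSG00000027314, chr2:119325784-119335962, plus strand), a ligand of endothelial cells, had scaled TPM of 2.64, 2.14 and 1.88 in WT (C57BL/6) and 2.56, 0.882 and 1.29 in YAP KO mice, of which LM74 lay at the WT level. It was 3.26, 2.02 and 2.32 in WT (mixed) and 1.34, 2.02 and 1.49 in YAP KO TAZ HET livers, with ranges that barely overlapped. The log2 differences were -0.37 ± 0.24 and -0.43 ± 0.18 (SE, limma, adjusted p = 0.270 and 0.0913). Without LM74 the difference in YAP KO mice passed the test (-0.61, limma, adjusted p = 0.0471), and with quantile normalization so did that in YAP KO TAZ HET livers (-0.67, limma, adjusted p = 0.0155). Without scaling the Dll4 differences shrank to -0.13 and -0.22 (limma, adjusted p = 0.721 and 0.387). Jag2 (ENSMUSG00000002799, chr12:112907819-112929776, minus strand), the remaining ligand, ranged from 0.0209 to 0.414 TPM, with both extremes in YAP KO mice.

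Rbpj (ENSMUSG00000039191, chr5:53466152-53657362, plus strand), through which all Notch receptors reach DNA, was not called in either model. Scaled TPM ranged from 5.32 to 5.72 in WT (C57BL/6), 5.28 to 6.91 in YAP KO, 5.61 to 6.16 in WT (mixed) and 4.71 to 6.31 in YAP KO TAZ HET livers. The log2 differences of 0.10 ± 0.13 and -0.11 ± 0.13 (SE) had 95% intervals of -0.20 to 0.40 and -0.40 to 0.18 (limma, adjusted p = 0.595 and 0.528). Reads of Rbpj can be shared with the processed pseudogenes Rbpj-ps1 and Rbpj-ps3, and Rbpj, Notch1, Notch3 and Dll4 overlap genes on the opposite strand that cannot be separated where the library strand is not given.

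Among the targets, Hes1 (ENSMUSG00000022528, chr16:30064384-30067796, plus strand, 4 exons), a transcriptional repressor and a direct target of Notch in bile duct cells, was higher in YAP KO mice. Its scaled TPM was 17.6, 15.3 and 13.1 in WT (C57BL/6) and 25.8, 24.9 and 41.5 in YAP KO mice, with LM191 the highest, and the groups did not overlap. The mean rose from 15.3 ± 2.26 to 30.7 ± 9.37 (SD, n = 3), a log2 fold change of 0.93 ± 0.20 (SE, limma, adjusted p = 0.00894). In the mixed set it was 11.9, 12.1 and 29.8 in WT and 13.4, 26.7 and 24.9 in YAP KO TAZ HET livers. WT mouse LM230 stood above every mutant and the mutant LM225 stood near the other two WT mice, so the groups overlapped. The log2 difference was 0.33 ± 0.37 (SE, limma, adjusted p = 0.520), with a 95% interval of -0.52 to 1.17. Without LM230 it was 0.74 (limma, adjusted p = 0.0757), and without LM225 it was 0.62 (adjusted p = 0.205).

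Hes1 also belongs with genes that answer quickly to stimulation, so the immediate early genes (Fos, Jun, Egr1 and 9 others) are given beside it. They were added after their values were seen, so their counts are descriptions and not tests of the list. In YAP KO mice 8 of 10 tested were called higher, beside 18.8% of all genes. Summed scaled TPM of the list was 368 in LM74, 3185 in LM189 and 1689 in LM191, against 165 to 221 in WT (C57BL/6) mice. LM189, with the highest sum, had the lowest Hes1 of its group, and without LM189 the Hes1 change was 1.05 (limma, adjusted p = 0.0123). In WT (mixed) mice the sum was 270 in LM230, the mouse with high Hes1, against 156 and 163 in the others. In YAP KO TAZ HET livers it was 339 in LM225, which had the lowest Hes1 of its group, and 260 and 280 in LM250 and LM251. Of 9 immediate early genes tested in that model 5 were called higher, beside 19.2% of all genes. In the difference between the models none of 11 was called. An unadjusted p under 0.05 (limma) was reached by 9 of the 11, beside 4.56% of all genes. Without LM191 the Hes1 change in YAP KO mice was 0.70 (limma, adjusted p = 0.0132). The part of these genes in the Hes1 levels was not tested.

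Hey1 (ENSMUSG00000040289, chr3:8663359-8667256, minus strand, 5 exons), a repressor turned on by Notch in vessels and other tissues, was higher in YAP KO TAZ HET livers. Scaled TPM was 1.08, 0.603 and 0.549 in WT (mixed) and 1.84, 2.19 and 2.69 in YAP KO TAZ HET livers, and the groups did not overlap. The mean rose from 0.744 ± 0.29 to 2.24 ± 0.43 (SD, n = 3), a log2 fold change of 0.90 ± 0.18 (SE, limma, adjusted p = 0.00497). Hey1 passed the filter on low values mainly through the mutants, since only 1 of the WT mice reached 1 TPM, and with no filter the adjusted p was 0.00779. In WT (C57BL/6) mice it was 0.442, 0.863 and 0.423 and in YAP KO mice 2.54, 0.734 and 1.80, where LM189 lay within the WT range. There it was below the filter, and with no filter the log2 difference was 0.72 (limma, adjusted p = 0.0960). In a fit of all 12 libraries, in which Hey1 was tested, that difference passed the test (0.72, limma, adjusted p = 0.0311). Hey1 entered that fit mainly through mutants, since WT (C57BL/6) mice reached at most 0.788 TPM, so this call adds no separate support.

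Heyl (ENSMUSG00000032744, chr4:123233556-123249875, plus strand, 5 exons), the third Hey family gene, ranged from 0.669 to 1.63 TPM over the 12 livers and overlapped between groups. Its log2 difference in YAP KO mice was -0.13 ± 0.17 (SE, limma, adjusted p = 0.602).

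**Figure D2:**
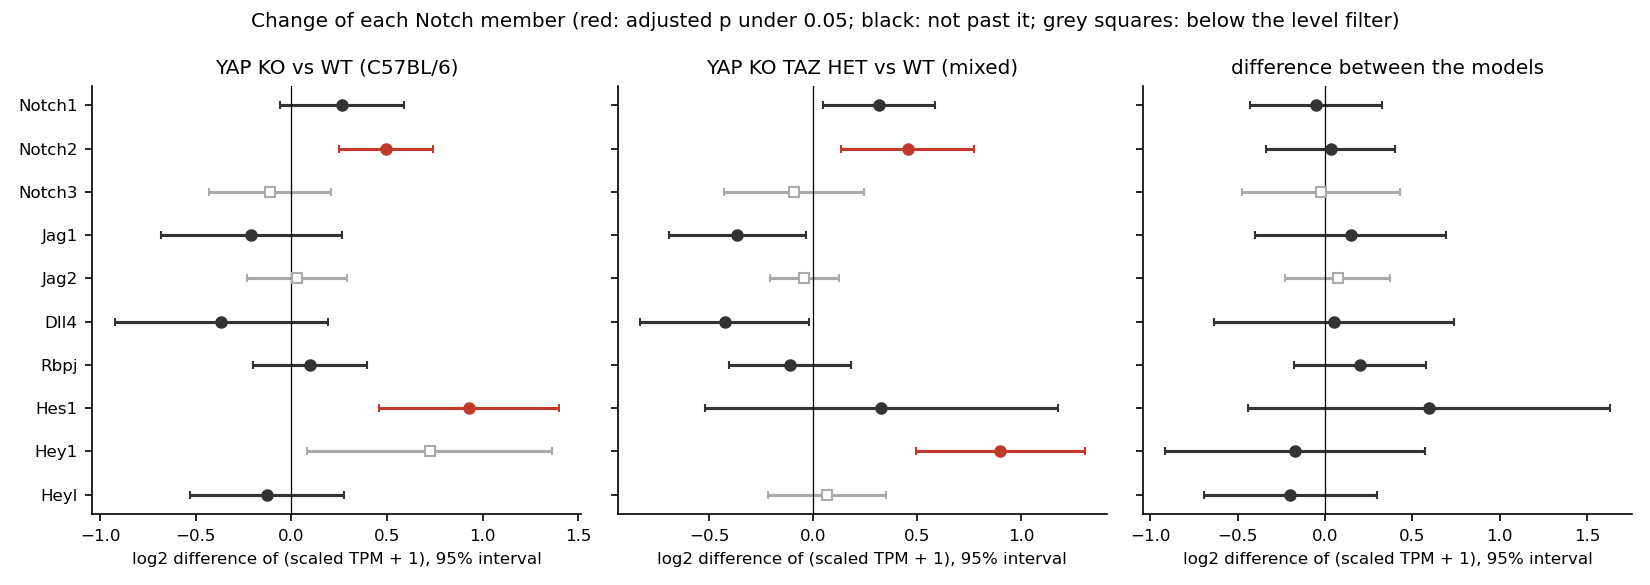
Log2 difference (horizontal axis, log2 of scaled TPM + 1) of each gene between each model and its WT littermates, and the difference between those differences, with 95% intervals from limma; grey squares are genes below the filter, from the fit with no filter. Notch2 was called in both models, Hes1 at 0.93 in YAP KO and Hey1 at 0.90 in YAP KO TAZ HET livers, and every interval of the difference between the models spanned 0.

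Whether the models differed was tested over all 12 libraries for the 8 genes that passed the filter there, and none was called (limma, adjusted p = 0.998 for each, and 0 at an unadjusted p under 0.05). Over all 12159 genes 7 were called, or 0.0576%, and 4.56% had an unadjusted p under 0.05. Hes1, called in YAP KO mice only, had a difference of 0.60 with a 95% interval of -0.44 to 1.63. Hey1, called in YAP KO TAZ HET livers only, had a difference of -0.17 with an interval of -0.92 to 0.57. For Notch2 the interval was -0.34 to 0.40 around 0.03. These widths leave room for differences as large as the changes themselves for Hes1 and Hey1. Between the WT groups none of 6 members tested was called (limma, 0 at an unadjusted p under 0.05), where 0.216% of 11126 genes were called and 5.83% had an unadjusted p under 0.05.

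With the 4 groups ordered by mean scaled TPM over the 12 libraries, 30 pairs of neighboring groups were compared, and 28 overlapped. Of the 24 pairs from the 8 genes that passed the filter over 12 libraries 2 did not overlap, where 17.8% of such pairs over all genes tested did not. Notch1 stood apart between WT (C57BL/6) and YAP KO TAZ HET livers (4.94 and 5.95) and Notch2 between WT (mixed) and YAP KO mice (8.78 and 11.5), each with an exact permutation p of 0.1, the smallest that 3 mice against 3 allow. For Hes1 the means ran from 15.5 in WT (C57BL/6) through 17.7 in WT (mixed) and 21.4 in YAP KO TAZ HET to 31.0 in YAP KO mice, with every pair of neighbors overlapping.

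**Figure D3:**
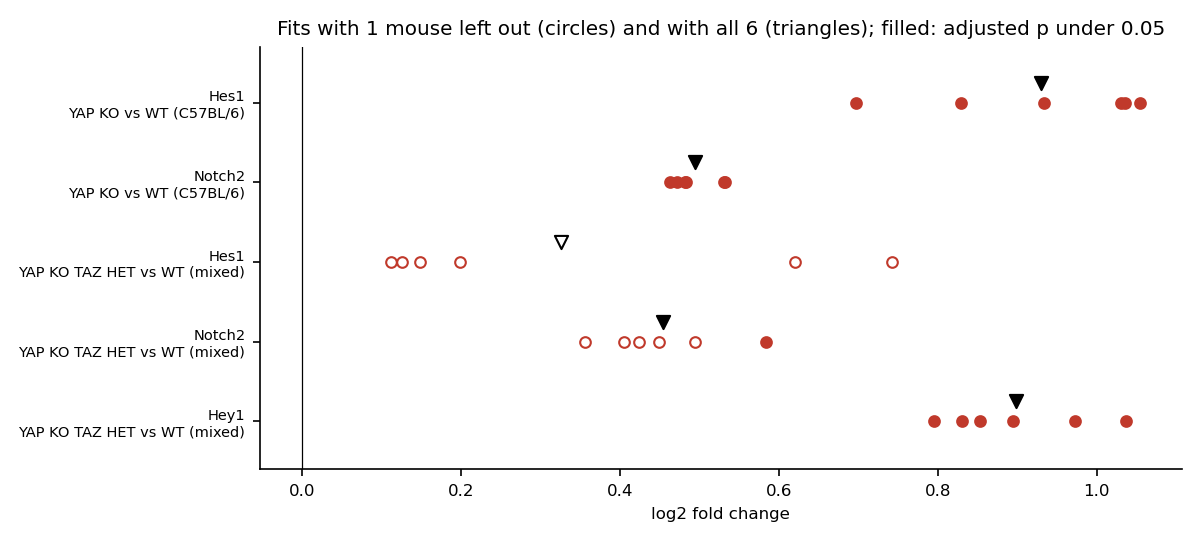
Log2 fold change (horizontal axis) of the called genes, and of Hes1 in the mixed set, with all 6 mice (triangles) and with each mouse left out (circles); filled marks have a limma adjusted p under 0.05. Hey1 stayed between 0.79 and 1.04 and called throughout, Notch2 in YAP KO TAZ HET livers was called in 1 of the 6 fits, and Hes1 there ran from 0.11 to 0.74.

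Beyond the 10 genes, a list of 61 other pathway genes held calls in both directions. In YAP KO mice 48 were tested, 9 were called higher and 7 lower, or 33.3% beside 36.7% of all genes, with a median change of 0.04. In YAP KO TAZ HET livers 47 were tested, 8 were called higher and 6 lower, or 29.8% beside 38.2%, with a median of 0.02. Without scaling the split was 17 higher and 1 lower for YAP KO and 16 higher and 2 lower for YAP KO TAZ HET livers, so directions of small changes hang on the scaling. In the difference between the models none of 52 was called (limma, 1 at an unadjusted p under 0.05). Without YAP KO mouse LM189 the first count of called genes was 10, and without YAP KO TAZ HET mouse LM250 the second was 8.

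In both models 9 of these genes were called in the same direction, 5 higher and 4 lower, or 19.1% of the 47 tested in both, beside 28% of the 11530 genes tested in both. Of those 11530 genes 15% were called higher in both and 13% lower. Dtx4, an E3 ubiquitin ligase of the Deltex family that acts on Notch, rose the most, from 2.66 ± 0.97 to 10.4 ± 1.40 scaled TPM with YAP loss alone and from 1.95 ± 0.29 to 9.84 ± 2.41 with the added loss of 1 Wwtr1 copy (SD, n = 3). Its log2 fold changes were 1.66 and 1.86 (limma, adjusted p = 0.000608 and 0.000189). The related Dtx3 rose by 0.96 and 1.21, and Numbl, of the Numb family that restrains Notch, by 0.80 and 0.99. Adam10, the protease that makes the first ligand-induced cut in the receptor, rose by 0.74 in each, and Aph1b, a subunit of the gamma-secretase that makes the next cut, by 0.50 and 0.65. Aph1b fell short of the test in YAP KO mice with quantile normalization (0.29, limma, adjusted p = 0.169).

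The 4 that fell were Hes6, Tle1, Itch and Kat2b. Hes6, a relative of Hes1 known to oppose it, had the highest level of the listed target genes, Hes1 included, and fell from 142 ± 44.9 to 43.5 ± 7.43 scaled TPM with YAP loss alone and from 141 ± 29.6 to 51.1 ± 11.5 with the added loss of 1 Wwtr1 copy (SD, n = 3). No mutant overlapped its WT group, and the log2 fold changes were -1.64 and -1.44 (limma, adjusted p = 0.00149 and 0.00117). Tle1, a corepressor that works with Hes proteins, had log2 changes of -0.79 and -0.82. Itch, an E3 ligase that can target Notch, had -0.48 and -0.51, and Kat2b, a histone acetyltransferase of the active complex, had -0.38 and -0.45. Without scaling Itch and Kat2b were not called in either model and Tle1 not in YAP KO mice (limma, adjusted p = 0.326 and 0.232, 0.838 and 0.351, and 0.0956). With quantile normalization Kat2b was again not called in either (-0.29 and -0.34, limma, adjusted p = 0.0944 and 0.0680).

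Other genes of the core pathway were not called in both models with the trimmed-mean scaling. The receptor Notch4 and the ligand Dll1 had differences of -0.05 and -0.08 in YAP KO and -0.05 and -0.27 in YAP KO TAZ HET livers. Mfng, a glycosyltransferase that tunes which ligand a receptor answers, had 0.65 and 0.67 and was called in the second only (limma, adjusted p = 0.0536 and 0.0117). It was called in both without scaling (limma, adjusted p = 0.0156 and 0.00354) and in neither with quantile normalization (0.149 and 0.0755). Lfng, of the same family, had 0.12 and 0.44, and without scaling it was called in the second (0.71, limma, adjusted p = 0.0125). The coactivator Maml1 had -0.12 and -0.11. Nrarp, a target that feeds back on Notch, had -0.34 and -0.33 (limma, adjusted p = 0.373 and 0.151). With quantile normalization Nrarp was called lower in YAP KO TAZ HET livers (-0.57, limma, adjusted p = 0.0363). Hey2 reached at most 0.203 TPM, and Dll3 and Hes3 are listed at 0 in all 12 livers.

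**Figure D4:**
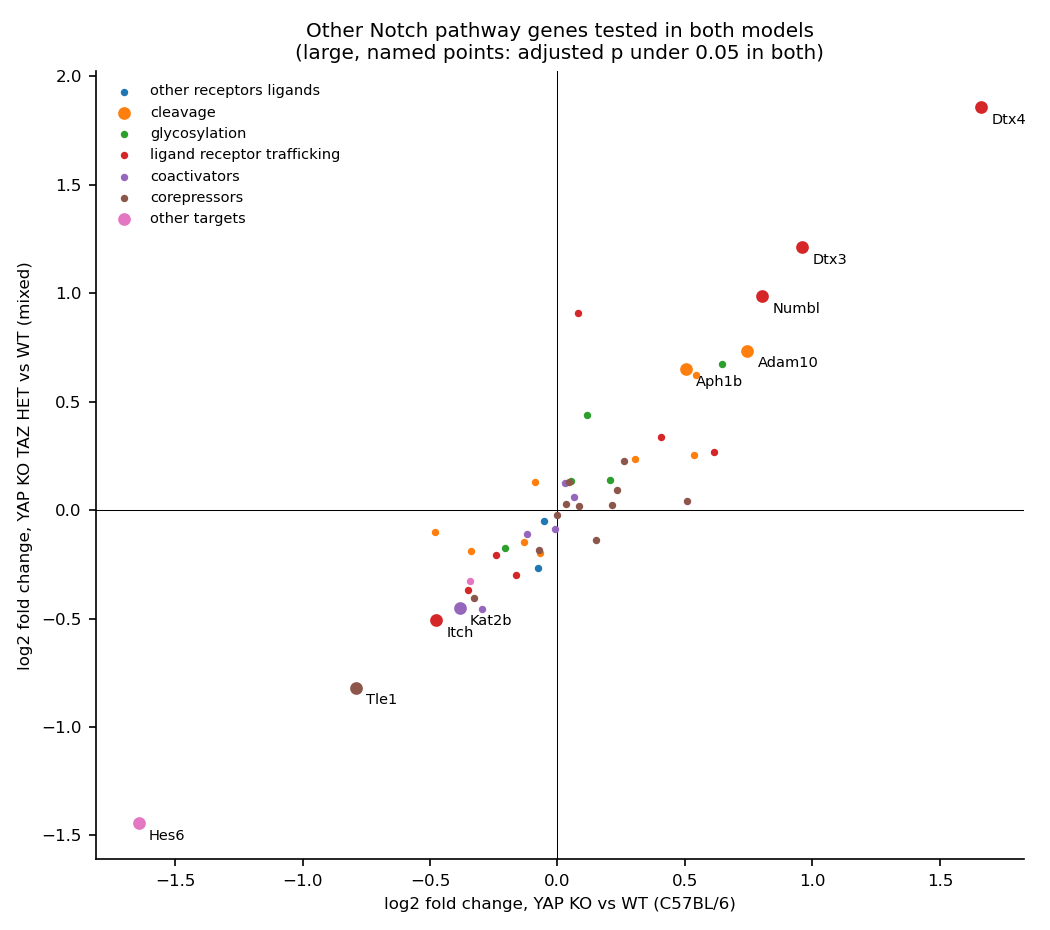
Log2 fold changes of the other pathway genes tested in both models, YAP KO on the horizontal and YAP KO TAZ HET on the vertical axis, colored by role; the 9 named, large points were called in both. Dtx4 lies at 1.66 and 1.86 and Hes6 at -1.64 and -1.44, and most other points lie near 0 on both axes.

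The deleted genes and markers of the cell types were read in the same livers. Over all genes tested 18.8% were called higher and 17.9% lower for YAP KO, and 19.2% and 19% for YAP KO TAZ HET livers. Yap1 was 31.9 to 35.7 scaled TPM in WT (C57BL/6) and 1.52 to 3.05 in YAP KO mice, and 35.0 to 36.7 in WT (mixed) and 7.30 to 10.7 in YAP KO TAZ HET livers. Wwtr1 was 10.7 to 11.9 in YAP KO TAZ HET against 8.84 to 9.36 in WT (mixed) mice (log2 difference 0.26, limma, adjusted p = 0.0743) and 12.2 to 13.7 in YAP KO against 6.86 to 8.01 in WT (C57BL/6) mice (0.73, adjusted p = 0.00186). Scaled over all 12 libraries, every YAP KO TAZ HET liver (10.6 to 11.8) lay below every YAP KO liver (12.3 to 13.8), and the difference between the models was 0.46, with a 95% interval of 0.16 to 0.75 (limma, adjusted p = 0.802). The 2 models differ in background, in the floxed line used and in the remaining Yap1 level as well as in Wwtr1. The ROSA-stop-EYFP allele is stated for YAP KO mice only. These differences cannot be told apart. Of 10 hepatocyte markers 5 were called lower and none higher in each model, among them the monooxygenase Cyp2e1 (-2.83 and -2.68) and the transport protein Ttr (-1.13 and -0.93), while the regulator Hnf4a had differences of -0.07 and -0.11. Alb, which encodes albumin, was 45843 to 57194 scaled TPM in YAP KO against 82046 to 93518 in WT (C57BL/6) mice, and 43663 to 62839 in YAP KO TAZ HET against 69315 to 96577 in WT (mixed) mice (limma, adjusted p = 0.0151 and 0.0858). Summed scaled TPM of the hepatocyte list was 66261 to 81676 against 127880 to 134210 and 66199 to 86497 against 104434 to 143630. Of 12 macrophage markers 11 were called higher in each model, with summed scaled TPM of 830 to 1130 in YAP KO against 336 to 435 in WT (C57BL/6) mice and of 1000 to 1261 in YAP KO TAZ HET against 294 to 607 in WT (mixed) mice.

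Endothelial, biliary and stellate cells are known to carry many of the Notch genes, and their marker lists held calls in both directions in at least 1 model. The shares of tested markers called were 20% and 40% for endothelial, 50% and 60% for biliary and 66.7% and 50% for stellate cells. Over all genes tested the shares were 36.7% for YAP KO and 38.2% for YAP KO TAZ HET livers. Of 15 endothelial markers 1 was called higher and 2 lower for YAP KO and 2 higher and 4 lower for YAP KO TAZ HET livers, and summed scaled TPM was 145 to 185 against 170 to 196 and 157 to 227 against 220 to 224. Pecam1 had differences of 0.08 and 0.03 and Cdh5 of 0.35 and 0.65 (limma, adjusted p = 0.106 and 0.0210). Most of the 15 went the other way, with 9 and 11 negative and medians of -0.10 and -0.12, beside -0.04 over all genes tested in each. Of 10 biliary markers tested, out of 15, 5 were called higher in each model, Sox9 (2.10 and 1.69) and Spp1 (3.04 and 1.33) among them, and 1 lower in YAP KO TAZ HET livers. The duct keratin Krt19 stayed between 0.216 and 6.39 TPM, and Epcam was called lower in YAP KO TAZ HET livers (-1.48, limma, adjusted p = 0.00118). Summed biliary markers were 494 to 836 against 147 to 192 and 348 to 439 against 195 to 225 scaled TPM. Spp1 alone was 279 to 595 of the YAP KO sums and 76.6 to 176 of the YAP KO TAZ HET sums, against 29.4 to 54.4 in the WT groups. Of 12 stellate markers 5 were called higher and 3 lower for YAP KO and 5 higher and 1 lower for YAP KO TAZ HET livers, with Pdgfrb at 1.85 and 1.72 and Lrat at -0.84 and -0.47 (the last not called). The part of hepatocytes and of these cell types in the Notch2, Hes1 and Hey1 levels was not tested.

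By Pearson correlation of log2(scaled TPM + 1) over the 12 libraries, which fall into groups and share the scaling, the genes most like Hes1 were Rpn2 (0.903), Eml2 (0.877) and Eftud2 (0.873). Those most like Jag1 were Ankrd9 (0.910), Ruvbl1 and 0610010F05Rik (0.875 each), and those most like Notch3 were AI597479 (0.887), Zfp664 (0.873) and Gtf3c3 (0.857). Among the members the highest correlation was between Notch2 and Hey1 (0.819) and the lowest between Notch1 and Dll4 (-0.726). These are descriptions over the same 12 libraries.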

How the data were processed

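Whole-liver RNA of 12 mice was sequenced as paired-end reads. In CLC Genomics Workbench the authors mapped them to GRCm38.p6, and they deposited TPM for each gene and mouse in 1 table per model. Each table also holds the authors' edgeR comparison against WT (maximum group mean, fold change, log fold change, p-value, FDR and Bonferroni), which was not used. No read counts were used here and TPM keep no depth, so precision rests on the spread between 3 mice.

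Each library's TPM were divided by an unweighted trimmed mean of log ratios, cutting 30% of log ratios off either end, and 5% by mean level. After adding 1 and taking log2, limma 3.58.1 (R 4.3.3, lmFit, then eBayes with a trend) tested genes reaching 1 TPM in 3 or more of the fitted libraries. Tests were two-sided, with Benjamini-Hochberg adjustment over every gene tested and a threshold of 0.05. A model and its littermates made 1 fit of 6 libraries, and the difference between the models a fit of 12. Scaling factors ran from 0.852 to 0.947 in WT and from 1.07 to 1.22 in mutant libraries. Single levels were compared with exact permutation tests (scipy 1.17.1). No library pair held identical values. The fits were tested on simulated data.

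The members and lists were chosen with earlier results of these data known. The genes named are the 10 members, a fixed set of pathway genes and markers, the pathway genes with the largest changes called in both models, and for Notch3, Jag1 and Hes1 the 3 most correlated genes; the immediate early genes, Cyp2e1, Ttr, Hnf4a, Dll3 and Hes3 were added after their values were seen. Alternatives were a pseudocount of 0.1, no filter, a filter of 5 TPM, no scaling, quantile normalization, robust shrinkage, all 12 libraries in 1 fit, a block of near animal numbers, and each mouse left out. Loci follow GENCODE, and promoters RefSeq (GRCm38.p6).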

Additional observations from a re-analysis of the deposited data

How the results depend on the processing

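With 3 mice a group and no read depth, only large or even changes can be called. Of 394 alternative values for single members, 361 kept their direction and side of the threshold, 6 lost a call, 5 gained one and 22 changed sign. The count of called members in YAP KO mice stayed at 2 or 3, and that of members differing between the models or between the WT groups at 0. In YAP KO TAZ HET livers it was 1 with no filter, where Notch2 was lost, 1 with a filter of 5 TPM, which removes Hey1, 4 with quantile normalization, which adds Jag1 and Dll4, and from 1 to 2 without each mouse. The pathway list had 10 to 16 called genes without each mouse for YAP KO and 8 to 15 for YAP KO TAZ HET livers. Signs turned for small differences: without scaling, Jag1 (0.0053) and Heyl (0.066) in YAP KO and Rbpj (0.16) in YAP KO TAZ HET livers, and with quantile normalization Rbpj in YAP KO mice (-0.014) and the Notch2 difference between the models (-0.00096).

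Without each mouse the difference between the models ran from -0.15 to 0.051 for Notch1, -0.10 to 0.13 for Notch2, -0.057 to 0.30 for Jag1, -0.20 to 0.25 for Dll4 and -0.39 to 0.12 for Hey1. That between the WT groups ran from -0.012 to 0.21 for Notch2, -0.24 to 0.10 for Jag1, -0.042 to 0.19 for Dll4 and -0.35 to 0.27 for Hes1. The cause of these shifts was not tested. A fit with a block of near animal numbers (LM74 and LM75 against LM189 to LM193) changed no call of a member in the C57BL/6 set, with Notch2 at an adjusted p of 0.00890 and Hes1 at 0.0119 in limma. No paired analysis was possible because the labels give each mouse its own number and the groups share none.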
